A study of Mus musculus with 7 samples.

Results

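Colony-stimulating factors are secreted proteins that keep myeloid cells alive, multiply them and activate them. The 8 genes described here are 4 ligands (Csf1, Il34, Csf2 and Csf3) and 4 receptor chains (Csf1r, Csf2ra, Csf2rb and Csf3r). They were chosen by their symbols, each matched 1 row of the gene table, and they are 8 of 32285 genes counted. Single-cell RNA was counted with the 10x 3′ assay in 7 libraries from whole tumours of NSCG-mCherry, a mouse glioblastoma line labelled EGFRvIII+ and Arf/Ink4a-/-, grown in the brains of wild-type C57BL/6 mice aged 7 to 10 weeks. Each library pooled at least 2 mice and was collected at about day 14, so a library, not a mouse or a cell, is the replicate.

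All 7 libraries share the tumour line and the wild-type host. UT (1 library) is a control for which the labels give no agent. IgG (2 libraries) is the isotype control, 10 mg/kg IgG2b injected every 3 days, and the labels do not say whether an IgG library also received the oral diluent that accompanied BPI. BP (2 libraries) received 5 mg/kg B20, an antibody to VEGF, with 10 mg/kg anti-PD-L1. BPI (1 library) received BP plus 10 mg/kg IPI-145, an inhibitor of phosphoinositide kinases, by daily gavage. CD40 (1 library) received 2 doses of 100 µg of an anti-CD40 agonist 5 days apart, and whether it also had a dendritic cell vaccine is not stated. UT, BPI and CD40 have 1 library each, so their spread was not measured, and tests of them take the spread from the IgG and BP libraries and assume that the lone library varies as those do. Where an IgG or BP library is left out, the spread comes from the 2 libraries of the other group alone. A call made or lost in that way so says little about a difference. Nothing in the labels says that replicate libraries came from separate experiments, so p-values measure only the spread between these libraries. IgG replicate 1, BP replicate 2 and BPI carry consecutive library names, as do CD40 and IgG replicate 2, while UT and BP replicate 1 stand alone. A term for the library set, used in some alternative fits, separates IgG replicate 1, BP replicate 2 and BPI from all other libraries. UT and BP replicate 1 so share a set with CD40 and IgG replicate 2, which the labels do not state. Among IgG and BP libraries the term makes the same split as the crossed replicate numbers of the closing section. Fits with the term or the crossed numbers leave 1 degree of freedom for the spread, as do those with an IgG or BP library left out. Calls made or lost in these fits so say little about a difference either.

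After filtering, 48588 cells were analysed, 5373 to 9650 per library, with 55134002 to 152217470 UMIs (unique molecules) in the cells of a library. Cells were clustered without the 8 genes and clusters were named "like" a cell type from marker lists. Of the cells, 31700 were tumour-like, 2600 T-like, 1140 NK-like, 3423 monocyte/macrophage-like and 2435 microglia-like, while 11.3% stayed unnamed. The largest unnamed clusters, of 2324 and 1844 cells, matched the tumour list best but failed the other naming rules. The names held against their markers for T-like cells, where 10 of 10 markers reached 20 CPM in every library, less fully for tumour-like cells, where 5 to 9 of 10 did. Libraries stood apart: in the tumour-like, T-like, NK-like and monocyte/macrophage-like classes the largest cluster of UT and of BP replicate 1 differed from those of the remaining libraries. Among microglia-like cells this held for BP replicate 1. UT there was tied, with 26 cells in the largest cluster of BP replicate 1 and 26 in that of the remaining libraries. The tumour-like cells of the remaining libraries also parted, between the IgG libraries too. A cluster led by Hist2h2ac held 1989, 1599 and 1618 cells of IgG replicate 1, BP replicate 2 and BPI. It held 10 and 1 of IgG replicate 2 and CD40. A cluster led by Adgrl3 held 2117 and 1663 cells of IgG replicate 2 and CD40, and 10, 66 and 65 of the former 3 libraries. The IgG libraries held few T-like (40 and 57) and monocyte/macrophage-like cells (75 and 58), beside 154 and 724 microglia-like cells. Pairs of libraries shared 0 to 26 barcodes, at most 0.384% of the smaller library. The labels give V2 barcoding chemistry for all libraries, but UT lists 713553 barcodes and the other libraries 1487060 to 2310016, so whether the chemistry was the same was not settled. Levels are given as CPM, UMIs of a gene in a cell class of a library, scaled to a fixed total of 1e+06 UMIs, and only for classes with at least 20 cells. Differences between groups were tested with edgeR's quasi-likelihood test on UMIs summed per library and class, adjusted by Benjamini-Hochberg over all genes of the class and called at an adjusted p under 0.05.

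As background, the proteins encoded by Csf1 and Il34 bind the same receptor tyrosine kinase, encoded by Csf1r, on which microglia and most tissue macrophages depend. Csf2 encodes granulocyte-macrophage colony-stimulating factor, made by activated lymphocytes among other cells, and its receptor joins a specific alpha chain (Csf2ra) to a signalling beta chain (Csf2rb) that the receptors of other cytokines share. Csf3 encodes granulocyte colony-stimulating factor, whose receptor (Csf3r) is best known on neutrophils. In glioblastoma, these ligands are known to come from malignant as well as immune cells, and microglia and infiltrating macrophages are known to carry the receptors.

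The ligands and receptors divided by cell class (the map of mean levels by class). Csf1 was read in tumour-like, microglia-like and several smaller classes, and Il34 in tumour-like, vascular and plasmacytoid dendritic-like classes. Csf2 was read mainly in T-like cells, while Csf3 was close to absent. Among receptors, Csf1r was highest in microglia-like cells, Csf2ra in monocyte/macrophage-like cells, Csf2rb in a small mast or basophil-like class and Csf3r in neutrophil-like cells.

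**Figure D1:**
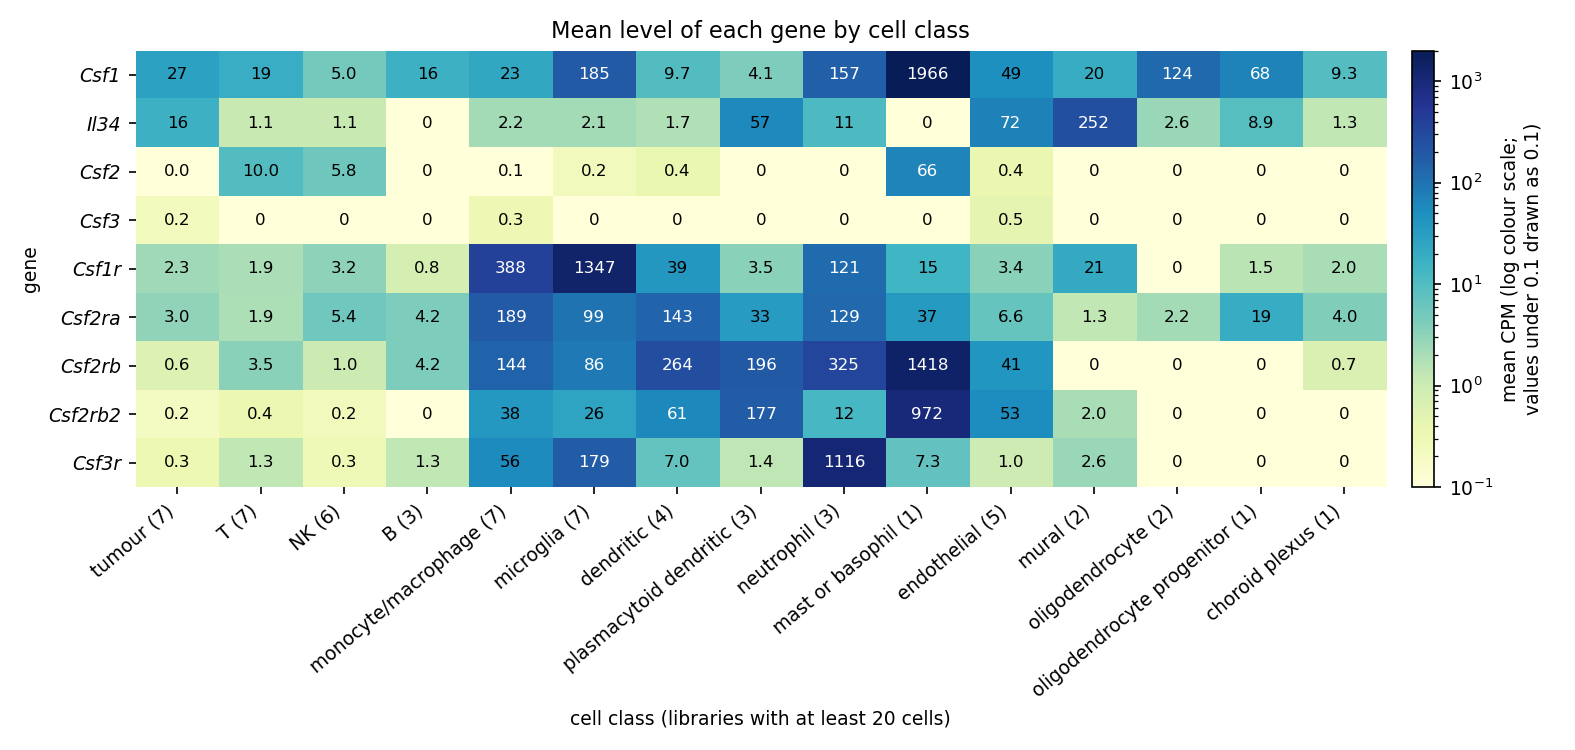
Mean level (CPM, coloured on a log scale) of the ligands and receptors in each cell class over the libraries with at least 20 cells of that class. Csf1r stands out in microglia-like cells at 1347 CPM, Csf3r in neutrophil-like cells at 1116 CPM and Csf1 in mast or basophil-like cells at 1966 CPM, a class measured in 1 library.

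Csf1 (chr3:107741048-107760469, minus strand, GRCm38) gave 24062 UMIs, and tumour-like cells supplied 66.9% of them. Per library, the tumour-like share had a median of 76.6% and ran from 36.0% in CD40 to 90.1% in BP replicate 2. Microglia-like cells supplied 18.1% over all libraries, from 3.13% in UT to 43.3% in CD40, where they were 11.2% of the cells against 1.38% in UT. Monocyte/macrophage-like cells supplied 3.87%, T-like cells 2.38% and NK-like cells 0.0873%. The shares depend on how many cells of each class a library holds as well as on the level per cell. Between BP and IgG, the tumour-like share was 82.8% ± 10.3 (SD, n = 2) against 69.5% ± 23.2 (n = 2), a difference smaller than the spread (exact permutation p = 0.667, two-sided, where 0.3333 is the smallest p that 2 against 2 allows).

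**Figure D2:**
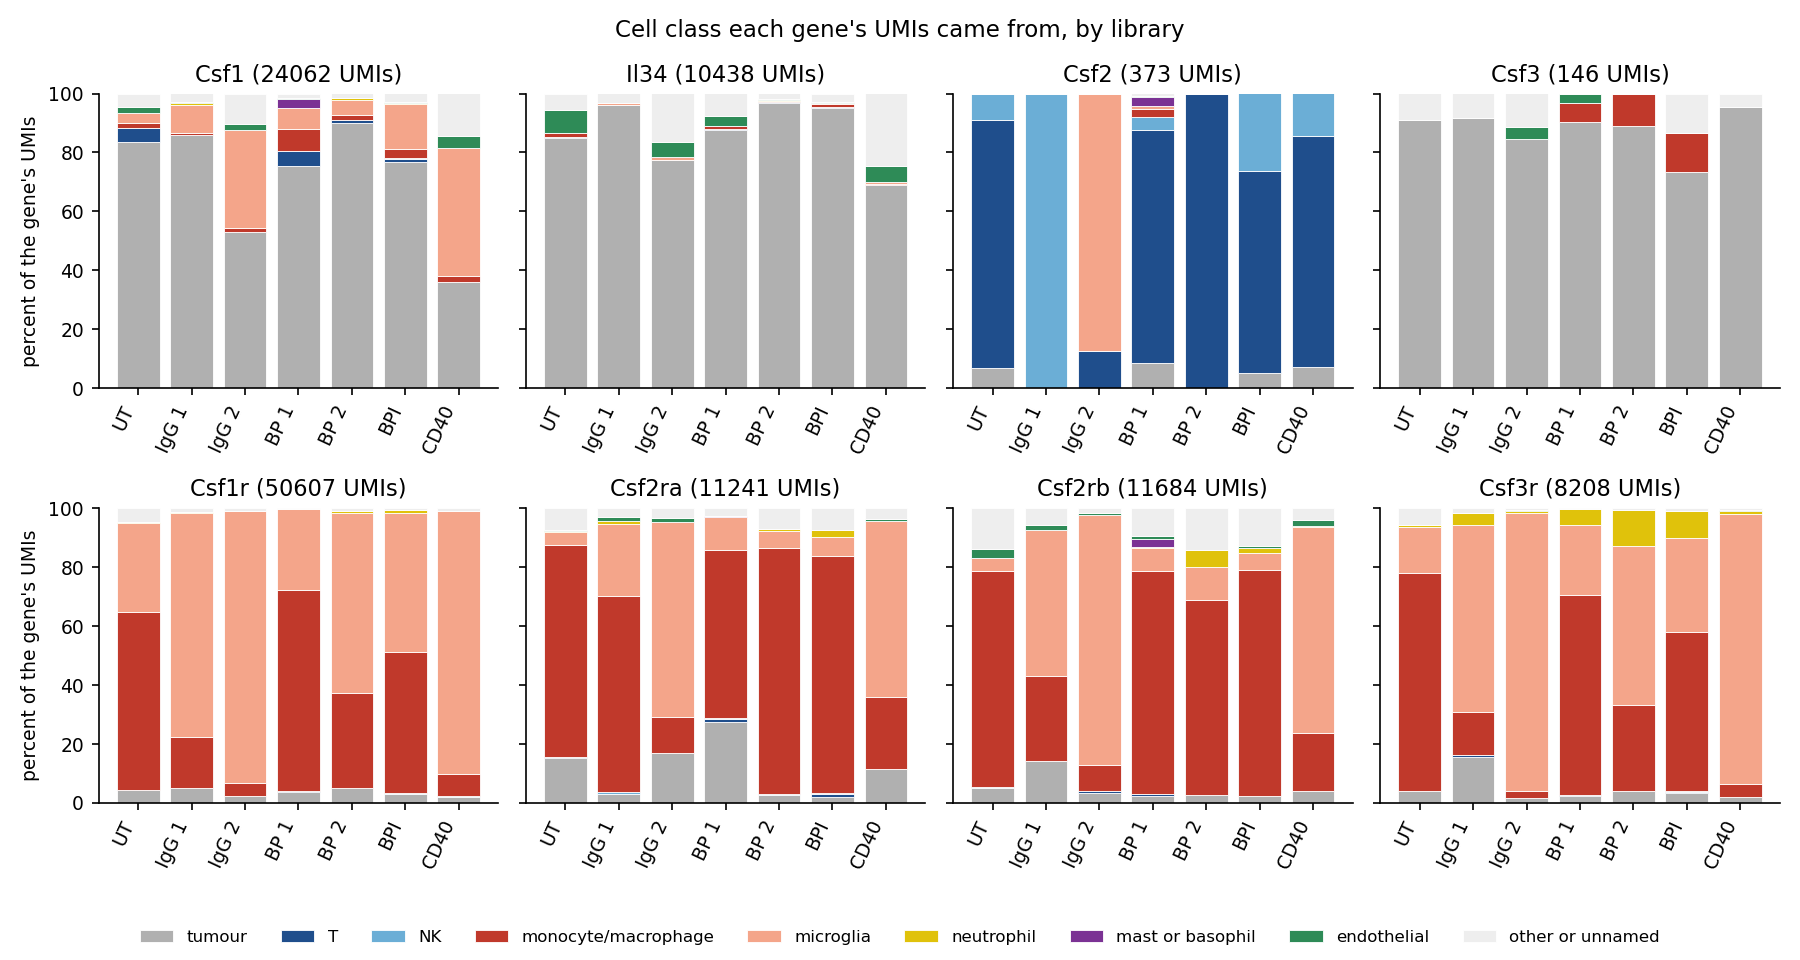
Share of each gene's UMIs (percent, vertical axis) that came from each cell class, 1 bar per library. The tumour-like share of Csf1 runs from 36.0% to 90.1%, and the microglia-like share of Csf1r from 27.4% to 92.2%.

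In tumour-like cells the Csf1 level was 34.6 CPM in UT, 22.1 and 15.8 in IgG, 59.8 and 21.1 in BP, 21.7 in BPI and 16.9 in CD40. BP replicate 1 was the highest library, and BP replicate 2 lay within the range of IgG. The BP against IgG difference was 1.01 ± 0.51 (log2 ± SE, adjusted p = 0.9998, edgeR) and was not called. The estimated share of free RNA (UMIs from outside the cell, read from barcodes with at most 50 UMIs) was at most 2.41% of tumour-like Csf1.

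Microglia-like cells had a higher Csf1 level than tumour-like cells in every library: 119 CPM in UT, 212 and 153 in IgG, 165 and 123 in BP, 309 in BPI and 213 in CD40 (185 ± 66.4, SD, n = 7). BPI was the highest library, but its difference from IgG, 0.94 ± 0.43 on the log2 scale, was not called (edgeR adjusted p = 1). Monocyte/macrophage-like cells were lower, at 7.30 CPM in UT, 20.01 and 33.4 in IgG, 38.8 and 16.4 in BP, 13.2 in BPI and 34.3 in CD40, with IgG and BP overlapping. UT was the lowest library, and its difference from IgG was -1.54 ± 0.60 on the log2 scale. It was not called (edgeR adjusted p = 0.365), but was with a term for the library set (0.0175) or without BP replicate 1 (0.0146). In a smaller class, 42 mast or basophil-like cells of BP replicate 1, Csf1 reached 1966 CPM from 269 UMIs. Neutrophil-like cells had 340, 94.9 and 35.7 CPM in BP replicate 1, BP replicate 2 and BPI, the 3 libraries with enough of them. Endothelial-like cells had 49.1 ± 14.3 CPM (n = 5).

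T-like cells carried Csf1 unevenly. The level was 57.3 CPM in UT (113 UMIs), 42.0 (428 UMIs) and 14.9 (11 UMIs) in BP, 8.80 (16 UMIs) in BPI and 5.56 (4 UMIs) in CD40. IgG replicate 1 had 0 UMIs, which allows up to 23.9 CPM, and IgG replicate 2 had 1 UMI, 4.57 CPM. UT and BP replicate 1 were above the other 5 libraries. With 40 and 57 T-like cells, the IgG libraries could not show a level near that of BPI. NK-like cells were low, with 21 Csf1 UMIs in all and 5.01 ± 2.72 CPM (n = 6).

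**Figure D3:**
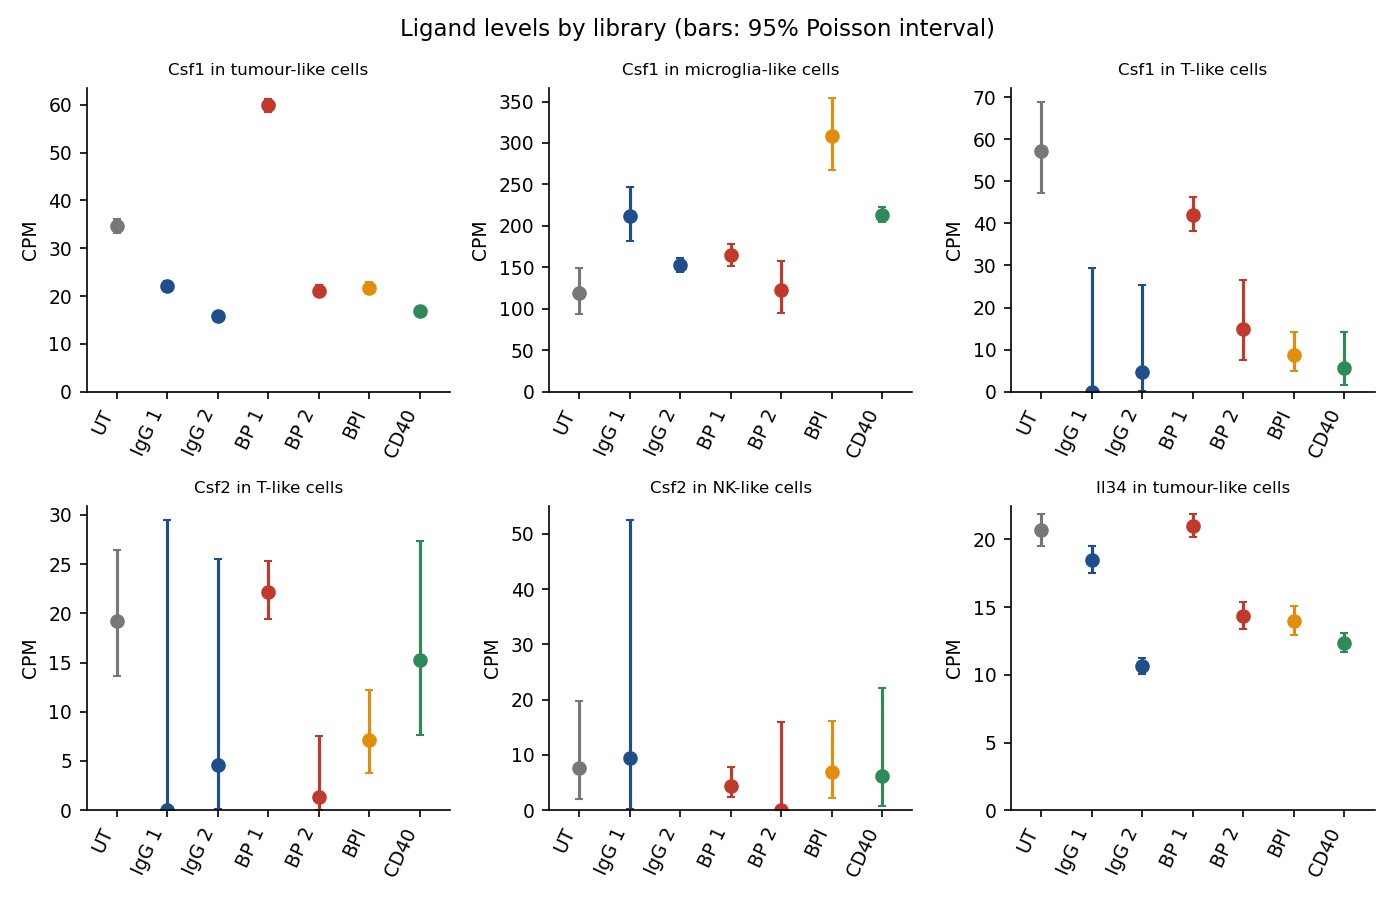
Level of the ligands (CPM) in each library, by cell class, with exact 95% counting intervals. In T-like cells, UT (57.3 CPM) and BP replicate 1 (42.0 CPM) lie above the other libraries for Csf1, and the IgG intervals are wide because only 1 Csf1 UMI was counted in both together. IgG replicate 2 has no NK-like point because it held 17 such cells.

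Il34 (chr8:110741829-110805924, minus strand), the other ligand of the Csf1r product, gave 10438 UMIs, of which tumour-like cells supplied 84.8% (median 87.6% per library, 68.9% to 96.7%). Its tumour-like level was 20.7 CPM in UT, 18.5 and 10.7 in IgG, 21.0 and 14.4 in BP, 14.0 in BPI and 12.4 in CD40 (15.9 ± 4.11, n = 7). These values overlapped between IgG and BP, with a difference of 0.22 ± 0.41 on the log2 scale (edgeR, not called), which was -0.19 without IgG replicate 2. By level, mural-like cells, the cells that wrap small vessels, were higher, at 290 and 214 CPM in the 2 libraries that held enough of them. Endothelial-like cells ranged from 11.3 CPM in BPI (2 UMIs) to 165 in BP replicate 1 (71.7 ± 65.7, n = 5). UT and BP replicate 1 held 0 mural-like cells. Of their endothelial-like cells, 93.33% and 93.55% fell in a cluster that also raised 8 of 8 mural markers. Other endothelial-like clusters raised 5 to 8. At Leiden resolution 0.5 a mural cluster took 8 cells of UT and 10 of BP replicate 1. The part of mural cells in the endothelial-like values was not tested. Plasmacytoid dendritic-like cells ranged from 17.3 CPM in BPI (2 UMIs) to 99.3 in BP replicate 1 (n = 3). T-like and NK-like cells averaged 1.11 and 1.12 CPM. In single libraries free RNA was estimated at up to 43.7% (T-like, UT, 2 UMIs) and 71.9% (NK-like, BP replicate 1, 1 UMI). The counting is not stated to use strand, and 2 genes, Gm15894 and Gm15895, lie antisense to Il34.

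Csf2 (chr11:54247271-54249667, minus strand, with Gm12223 antisense) was read mainly from T-like cells: 290 of 373 UMIs, 77.8%. In T-like cells it was at 19.3 CPM in UT (38 UMIs), 0 and 4.57 in IgG (0 and 1 UMI), 22.2 and 1.35 in BP (226 and 1 UMI), 7.15 in BPI (13 UMIs) and 15.3 in CD40 (11 UMIs). BP replicate 1 was the highest library and gave 226 of the 290 T-like UMIs, while BP replicate 2 gave 1. The IgG replicate 1 value of 0 allows up to 23.9 CPM, so it has no place in the order. NK-like cells gave 24 UMIs and 5.76 ± 3.27 CPM (n = 6), and 42 mast or basophil-like cells gave 9 UMIs, 65.8 CPM. Tumour-like cells gave 29 UMIs from 31700 cells. Of 10 microglia-like UMIs, 7 came from 1 cell of IgG replicate 2, which was most of the 8 Csf2 UMIs of that library. The share of T-like cells with a Csf2 UMI was 2.46%, and 0.731% (0.441% to 1.14%, exact 95% binomial interval) after each cell was thinned to 1000 UMIs. Among monocyte/macrophage-like cells the unthinned share was at most 0.446% in any library.

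T-like cells were divided by whether they had a Foxp3 UMI, a Cd8a or Cd8b1 UMI, or a Cd4 UMI, which depends on depth. In 2 libraries Csf2 was highest in Cd4 cells: 30 UMIs in 7 of 111 cells in UT (34.5 CPM) and 173 UMIs in 23 of 307 cells in BP replicate 1 (65.7 CPM). In BPI, Cd8 cells had 10 UMIs in 6 of 345 cells (7.88 CPM) and Cd4 cells 0 in 36 cells, where the interval reaches 49.7 CPM. Over all libraries Cd4 cells had 53.4 CPM, with 173 of their 204 UMIs from BP replicate 1, Cd8 cells 4.08 (29 UMIs in 18 of 1086 cells) and Foxp3 cells 7.02. In CD40, 9 of the 11 UMIs came from 2 cells outside these 3 subsets. In UT and BP replicate 1 Csf1 was also highest in Cd4 cells, at 101 CPM in UT and 71.0 in BP replicate 1. Foxp3 cells, the regulatory subset, had 34.6 and 58.4 CPM of Csf1 in the same 2 libraries, and Cd8 cells 16.6 and 25.9. No subset of either IgG library held more than 30 cells, so subsets were not compared between groups.

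**Figure D4:**
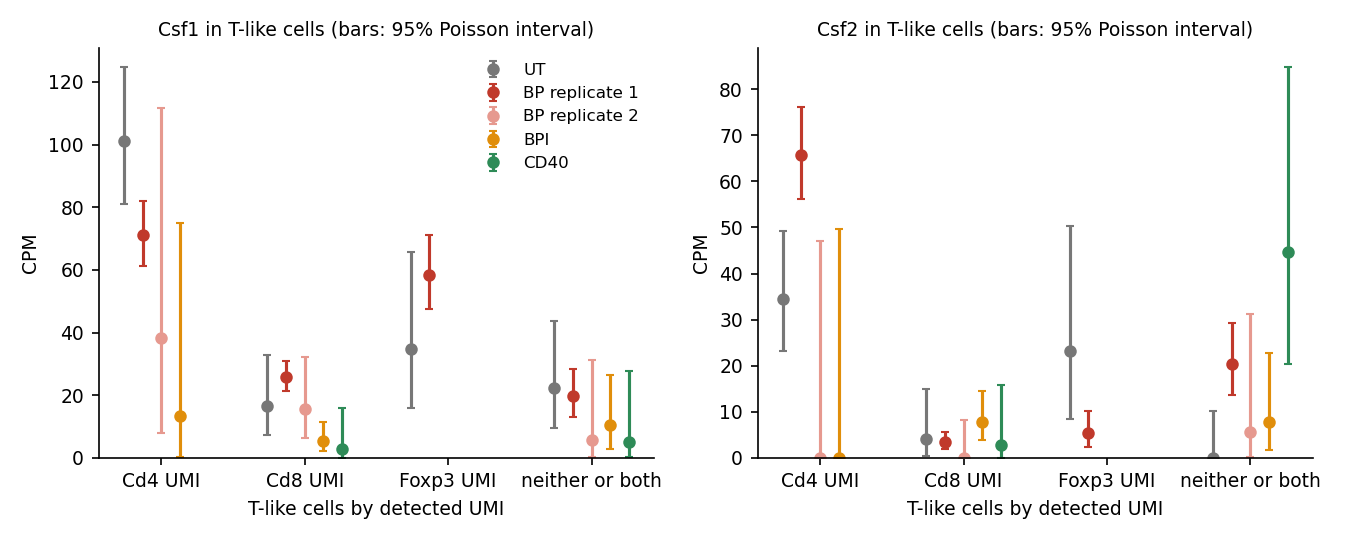
Csf1 and Csf2 levels (CPM, exact 95% counting intervals) in T-like cells with Foxp3, Cd8 or Cd4 UMIs, for libraries with at least 20 such cells. Cd4 cells of UT and BP replicate 1 are highest for both ligands, at 101 and 71.0 CPM for Csf1 and 34.5 and 65.7 CPM for Csf2.

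Csf3 (chr11:98701263-98703629, plus strand) was counted only 146 times, and 88.4% of those UMIs were in tumour-like cells. Its tumour-like level was 0.341 CPM in UT, 0.156 and 0.186 in IgG, 0.249 and 0.287 in BP, 0.234 in BPI and 0.209 in CD40. Monocyte/macrophage-like cells gave 6 UMIs, endothelial-like cells 2 and unnamed cells 9. No Csf3 UMI was counted in T-like, NK-like, microglia-like or neutrophil-like cells.

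Among receptors, Csf1r (chromosome 18) gave 50607 UMIs, 64.9% of them from microglia-like and 30.9% from monocyte/macrophage-like cells. In microglia-like cells it was at 1383 CPM in UT, 1145 and 1446 in IgG, 1133 and 1692 in BP, 1178 in BPI and 1453 in CD40 (1347 ± 207, n = 7). The highest and lowest of those libraries were the 2 BP replicates. The monocyte/macrophage-like levels were 282 CPM in UT, 350 and 447 in IgG, 609 and 314 in BP, 275 in BPI and 441 in CD40 (388 ± 120, n = 7). Every microglia-like value was above every monocyte/macrophage-like value. Neutrophil-like cells had 121 ± 19.2 CPM (n = 3, from 6, 9 and 16 UMIs) and dendritic-like cells 38.8 ± 26.7 (n = 4). The neutrophil-like cluster raised 8 of 8 neutrophil and 8 of 10 monocyte/macrophage markers. The part of monocytes in its levels of this and the other genes was not tested. In tumour-like cells Csf1r was at 0.893 to 5.02 CPM, with 21.1% to 65.6% of it estimated as free RNA. Csf1r overlaps Hmgxb3 on the opposite strand.

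The class that supplied Csf1r differed between libraries with the makeup of the myeloid cells. Monocyte/macrophage-like cells gave 50.1% ± 25.6 of Csf1r UMIs in BP and 10.8% ± 9.04 in IgG, and microglia-like cells gave 44.3% ± 23.9 and 84.2% ± 11.4 (SD, n = 2 each, exact permutation p = 0.3333 for both, the smallest possible). In the same libraries monocyte/macrophage-like cells were 18.6% and 3.97% of cells in BP and 1.26% and 0.774% in IgG. UT (60.4%) and BPI (47.8%) had monocyte/macrophage-like shares above both IgG libraries (17.2% and 4.44%), and CD40 (7.80%) lay between those 2. The level of Csf1r within monocyte/macrophage-like cells differed between BP and IgG by 0.29 ± 0.45 and within microglia-like cells by 0.15 ± 0.49 on the log2 scale, neither called (edgeR adjusted p = 0.941 and 1). Without BP replicate 1 the former was -0.082, and without IgG replicate 1 or BP replicate 2 the latter was -0.04 or -0.12.

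Csf2ra, the alpha chain of the Csf2 receptor (chr19:61223957-61228429, minus strand), was at 241 CPM in UT, 183 and 151 in IgG, 143 and 227 in BP, 198 in BPI and 178 in CD40 in monocyte/macrophage-like cells (189 ± 36.3, n = 7). BP and IgG overlapped there (log2 difference 0.30 ± 0.45, adjusted p = 0.938 by edgeR, and -0.26 without BP replicate 2). Microglia-like cells had 42.3 to 155 CPM (99.1 ± 44.6), dendritic-like cells 143 ± 39.4 (n = 4) and neutrophil-like cells 128.8 ± 87.0 (n = 3). Csf2ra also appeared in tumour-like cells, unevenly between libraries: 5.46 CPM in UT, 0.0709 and 2.10 in IgG, 10.7 and 0.198 in BP, 0.319 in BPI and 2.29 in CD40. The 3 low libraries were IgG replicate 1, BP replicate 2 and BPI, which carry consecutive library names. The tumour-like cells of these 3 fell mostly in other clusters than those of the higher libraries, and the part of this was not tested. Free RNA was estimated at 54.9%, 20.4% and 77.7% of the tumour-like level in these 3, and at 17.2% in UT, 8.40% in IgG replicate 2, 5.78% in BP replicate 1 and 13.6% in CD40. Tumour-like cells so supplied 18.1% of all 11241 Csf2ra UMIs, beside 50.8% from monocyte/macrophage-like and 25.4% from microglia-like cells. The order differed between libraries. In IgG replicate 2 microglia-like cells gave 966 of 1466 UMIs and monocyte/macrophage-like cells 181, and in CD40 1193 and 493 of 2005. Monocyte/macrophage-like cells gave more than microglia-like cells in the remaining libraries. Tumour-like cells gave 15 of 710 UMIs in BPI and 1205 of 4382 in BP replicate 1.

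Csf2rb, the shared beta chain (chr15:78325752-78353847, plus strand), was read in several myeloid classes. Of its 7607 UMIs in monocyte/macrophage-like cells, 5609 came from BP replicate 1. The level in that class was 124 CPM in UT (778 UMIs), 60.03 and 48.4 in IgG (36 and 58 UMIs), 321 and 127 in BP (5609 and 187 UMIs), 240 in BPI (692 UMIs) and 89.1 in CD40 (247 UMIs). Both IgG libraries were below the other 5, and BP did not overlap IgG. The share of all genes in this order was not counted, so the order is not read as particular to Csf2rb. Differences from IgG on the log2 scale were 2.12 ± 0.48 in BP (adjusted p = 0.237), 2.69 ± 0.54 in BPI (0.115), 1.55 ± 0.54 in UT (0.309) and 0.76 ± 0.55 in CD40 (1), none called by edgeR. Among libraries with consecutive names, IgG replicate 1 had 60.03 CPM against 127 in BP replicate 2 and 240 in BPI, and IgG replicate 2 had 48.4 against 89.1 in CD40. The share of these cells with a Csf2rb UMI, after thinning to 1000 UMIs, was 12.1% in UT, 9.33% and 5.17% in IgG, 26.1% and 14.1% in BP, 21.3% in BPI and 7.10% in CD40. Unthinned it was 62.0%, 36.0% and 60.3%, 76.2% and 37.4%, 52.9% and 63.2% in the same order.

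The Csf2rb calls depended on the settings, and those with an IgG or BP library left out rest on the spread of the 2 libraries of the other group. Calls with the library-set term are limited too, with 1 degree of freedom left for the spread. In BP, DESeq2 called the difference (adjusted p = 0.0115), as did edgeR with no filter on low counts (0.000196), with a term for the library set (0.000696) or without BP replicate 2 (0.00639), whereas without BP replicate 1 the difference was 1.51 ± 0.35 and not called (0.191). In BPI, DESeq2 gave an adjusted p of 0.00268, and edgeR called the difference without IgG replicate 1 (0.0495), BP replicate 1 (0.0079) or BP replicate 2 (0.00871) but not without IgG replicate 2 (0.368). In UT it was called without BP replicate 1 (0.0107). The class was made of different clusters in each library: a cluster led by Ccl24, Mrc1 and Arg1 held 99.7% of it in BP replicate 1 and one led by Ly6i and Slfn4 held 95.1% in UT. A cluster led by Gpnmb and Cxcl2 held 33.3% and 63.8% of it in IgG. Csf2rb was at 320 CPM in the first, 125 in the second and 62.2 in the third, and reached 452 in a cluster led by Clec4e and Ptgs2 that was 33.9% of the class in BPI. Summed microglial markers (10 genes) in the class were 761 CPM in UT, 1543 and 2826 in IgG, 441 and 992 in BP, 640 in BPI and 2019 in CD40, and 6, 8 and 8, 4 and 3, 3 and 8 of them reached 20 CPM in the same order. IgG and CD40 had the highest sums, although Sall1 and Slc2a5 were at 0 in both IgG libraries. Summed neutrophil markers (8 genes) were 12.7 to 35.5 CPM in 6 libraries and 87.2 in BPI, where 2 of the 8 reached 20 CPM and none did in the other 6. Between 1 and 5 of these markers were at 0 in each library. The part of these markers in the Csf2rb values was not tested.

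Other classes also carried Csf2rb. Microglia-like cells had 68.9 CPM in UT, 76.5 and 70.4 in IgG, 154 and 61.5 in BP, 77.9 in BPI and 91.4 in CD40, with the BP libraries the highest and the lowest of the 7. BP against IgG was 0.64 ± 0.47 on the log2 scale (not called, edgeR adjusted p = 1). Without BP replicate 1 that difference was -0.23. Without BP replicate 2 it was 1.14 and called, in the setting that called the most genes for BP in this class. Of the microglia-like cells of BP replicate 1, 89.5% fell in a cluster that raised 9 of 10 microglial and 7 of 10 monocyte/macrophage markers. Its top 10 genes held 0 microglial markers. The largest cluster of IgG, BP replicate 2, BPI and CD40 raised 10 of 10, with 5 in its top 10. The part of this in the Csf2rb values was not tested. Neutrophil-like cells had 325 ± 276 CPM (n = 3), dendritic-like cells 264 ± 85.5 (n = 4), plasmacytoid dendritic-like cells 196 ± 45.7 (n = 3) and the mast or basophil-like cells of BP replicate 1 had 1418. Endothelial-like cells were uneven, at 33.8 CPM in UT, 1.32 in IgG replicate 2 (3 UMIs), 130 in BP replicate 1, 34.02 in BPI (6 UMIs) and 6.53 in CD40. Of 11684 UMIs, monocyte/macrophage-like cells gave 65.1% and microglia-like cells 18.7%, but 7422 of these UMIs were from BP replicate 1. Microglia-like cells gave the largest part in IgG (49.6% and 84.7%) and in CD40 (69.9%), and monocyte/macrophage-like cells in UT (73.5%), BP (75.6% and 66.1%) and BPI (76.9%). The monocyte/macrophage-like share was 70.8% ± 6.71 in BP and 18.9% ± 14.0 in IgG (SD, n = 2 each, exact permutation p = 0.3333).

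Csf2rb2 (chr15:78282507-78305721, minus strand) is the neighbouring second beta chain of the mouse, used by the receptor for interleukin 3, and is not among the 8 genes. Because its sequence resembles that of Csf2rb, reads could be split between them: of the 4851 windows of 50 bases in the longest Csf2rb transcript, 892 (18.4%) also occur in Csf2rb2. None of the 451 windows in the last 500 bases, the end that a 3′ assay reads, is shared. Csf2rb2 in monocyte/macrophage-like cells was at 37.6 CPM in UT, 13.3 and 13.4 in IgG, 100 and 27.9 in BP, 58.1 in BPI and 17.7 in CD40. As for Csf2rb, both IgG libraries were the lowest, and the differences in BP (2.34 ± 0.57 on the log2 scale) and BPI (2.66 ± 0.64) were not called (edgeR adjusted p = 0.258 and 0.154). Here too the share of all genes in this order was not counted. The BP difference was called without BP replicate 2 (0.00438), and that in BPI without IgG replicate 1 (0.0259), BP replicate 1 (0.0094) or BP replicate 2 (0.0108) and by DESeq2 (0.0478).

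Csf3r (chr4:126024550-126044440, plus strand) was at 2759, 320 and 268 CPM in the neutrophil-like cells of BP replicate 1, BP replicate 2 and BPI (1116 ± 1424, n = 3), so 1 library set that mean. Microglia-like cells had 143 CPM in UT, 111 and 208 in IgG, 178 and 225 in BP, 159 in BPI and 233 in CD40 (179 ± 45.0, n = 7). With only 102 neutrophil-like cells in all, microglia-like cells supplied 59.8% of the 8208 Csf3r UMIs, monocyte/macrophage-like cells 33.5% and neutrophil-like cells 3.01%. The order differed between libraries: monocyte/macrophage-like cells gave 74.1% in UT, 67.9% in BP replicate 1 and 53.9% in BPI, but 14.8% and 2.48% in IgG, 29.0% in BP replicate 2 and 4.48% in CD40. This share was 48.5% ± 27.5 in BP and 8.63% ± 8.71 in IgG (SD, n = 2 each, exact permutation p = 0.3333). In monocyte/macrophage-like cells the level was 68.3 CPM in UT, 35.02 and 35.06 in IgG, 109 and 42.9 in BP, 61.6 in BPI and 39.3 in CD40. Both IgG libraries were again lowest, and the differences in BP (1.20 ± 0.44), BPI (1.35 ± 0.51) and UT (1.32 ± 0.50) were not called (edgeR adjusted p = 0.504, 0.356 and 0.354). How many of all genes shared that order was again not counted. The BP difference was called without BP replicate 2 (0.0294), the UT difference without BP replicate 1 (0.0201) and the BPI difference with a term for the library set (0.0348).

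**Figure D5:**
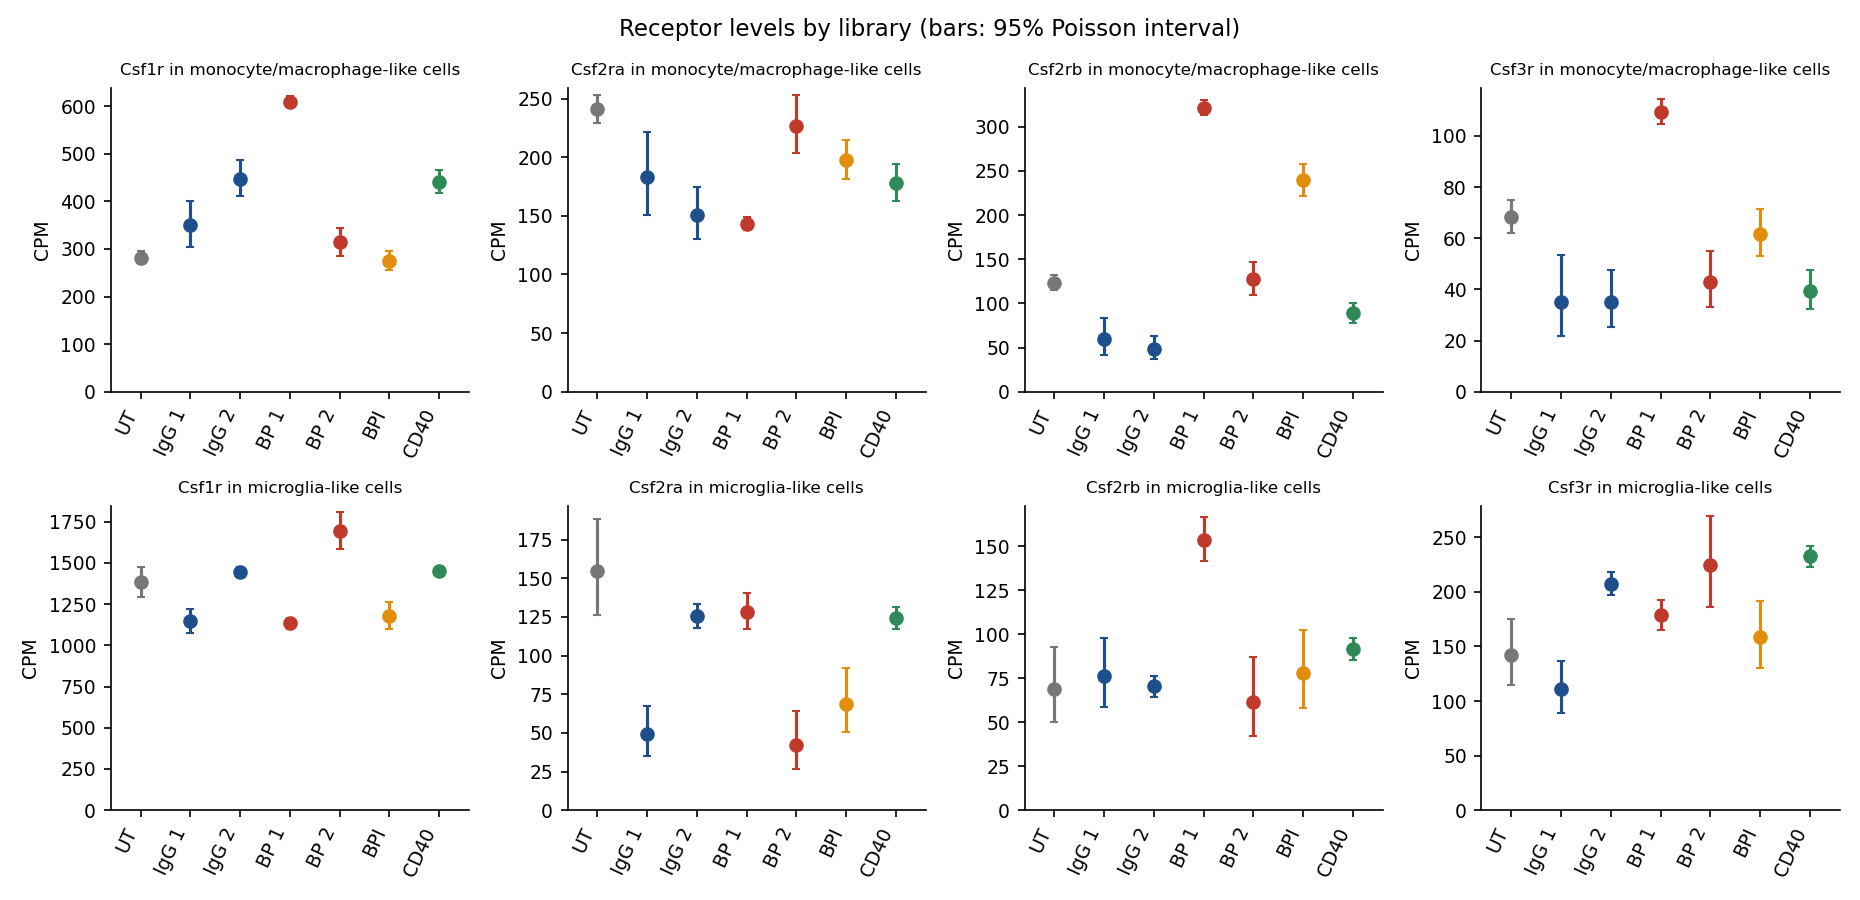
Level of the receptor chains (CPM) in each library, by cell class, with exact 95% counting intervals. For Csf2rb in monocyte/macrophage-like cells, IgG lies at 60.03 and 48.4 CPM and BP at 321 and 127 CPM, while Csf1r in microglia-like cells lies between 1133 and 1692 CPM in the 7 libraries.

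The promoters of 3 genes are shown because these receptor chains were all read mainly in myeloid classes. A reference promoter (RefSeq, GRCm38.p6) was matched for 4 of the 8 genes (Csf1, Csf2, Csf2ra and Csf3r) and for Csf2rb2. Capitals mark GAGGAA or its reverse complement, the core letters bound by PU.1, a transcription factor of myeloid cells, and each sequence is the 200 bases around or before the annotated start, 5′ to 3′ on the gene's strand. The windows are chr19:61228419-61228618 (minus), chr4:126024459-126024658 (plus) and chr15:78305722-78305921 (minus).
Csf2ra: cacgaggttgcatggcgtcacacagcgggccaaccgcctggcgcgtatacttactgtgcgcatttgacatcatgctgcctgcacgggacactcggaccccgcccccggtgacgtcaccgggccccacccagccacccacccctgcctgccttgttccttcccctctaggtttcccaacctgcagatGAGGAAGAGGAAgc
Csf3r: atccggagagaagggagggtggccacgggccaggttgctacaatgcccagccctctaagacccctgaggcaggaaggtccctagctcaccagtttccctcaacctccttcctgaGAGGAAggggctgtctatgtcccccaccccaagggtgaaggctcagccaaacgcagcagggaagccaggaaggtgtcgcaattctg
Csf2rb2: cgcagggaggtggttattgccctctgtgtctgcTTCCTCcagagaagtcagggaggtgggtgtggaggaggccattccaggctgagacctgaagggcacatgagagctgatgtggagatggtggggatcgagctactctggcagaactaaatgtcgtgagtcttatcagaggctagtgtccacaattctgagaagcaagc
In the full windows of 300 bases searched on both strands, GAGGAA was found in these 3 promoters and not in those of Csf1 and Csf2. It was found in 28.3% of 32851 promoters of the same length, so a match is common. Neither TGANTCA, the AP-1 motif, which 7.81% of promoters hold, nor TATAAA, which 13.6% hold, was found in any of the 5.

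The tests gave 1 member called in all. In T-like cells Csf1 was higher in UT than in IgG, by 4.23 ± 1.08 on the log2 scale (edgeR adjusted p = 0.0224), 1 of 3 members tested (Csf1, Csf2 and Csf2rb), where 1.96% of 9354 genes were called and 1.09% were higher. UT is 1 library here, so the SE and p rest on the spread of the IgG and BP libraries. All T-like cells of UT fell in 1 cluster, while 97.5% and 98.2% of those of IgG fell in another. The pooled counts gave a ratio of 19.7 (3.47 to 785, exact 95% interval for counting error), resting on 1 IgG UMI. The call was lost when free RNA was subtracted (adjusted p = 0.0657), when doublets were kept (0.0809) and without IgG replicate 1 (0.110) or IgG replicate 2 (0.0974), and DESeq2 gave no adjusted p for it. Summed monocyte/macrophage markers (10 genes) in T-like cells were 2090 CPM in UT, 1572 and 1252 in IgG and 810 to 3002 in the other libraries, and 5 of the 10 reached 20 CPM in UT against 5 and 4 in IgG. F13a1 and Mrc1 were at 0 in UT, and the same 2 with Ms4a7 and Chil3 in both IgG libraries. Summed microglial markers (10 genes) in T-like cells were 94.3 CPM in UT and 311 and 530 in IgG, and tumour markers (10 genes) 46.6 in UT and 39.9 and 32.0 in IgG. Beside 57.3 CPM in its T-like cells, UT had 7.30 CPM of Csf1 in monocyte/macrophage-like, 34.6 in tumour-like, 53.3 in endothelial-like and 119 in microglia-like cells. The part of these cell types in the difference was not tested, and neither was that of the number of barcodes listed, 713553 in UT. The other differences of the ligands in T-like cells were not called: Csf1 in BP was 3.09 ± 1.18 on the log2 scale (adjusted p = 0.506), turning to -0.23 once UT was added to IgG, Csf2 in UT 2.66 ± 1.47 (0.438) and Csf2 in BP 1.93 ± 1.58 (0.895), which turned to -1.004 without BP replicate 1 and to -0.087 once UT was added to IgG. The remaining member tested, Csf2rb, had log2 differences below 0 in all 4 comparisons, none called. It had 4 UMIs from 1 cell in IgG replicate 2, 2 in UT, 52 in BP replicate 1 and 0 in the other 4 libraries.

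No member was called in the remaining comparisons by edgeR. In T-like cells this was 0 of 3 tested in BP, where 0.0891% of 8980 genes were called, in BPI (0.167%) and in CD40 (0%), with 1 (Csf1), 1 (Csf2rb, at 0 UMIs in BPI) and 0 members at an unadjusted p under 0.05 and none called by DESeq2. The monocyte/macrophage-like count was 0 of 5 tested in BP (0% of 11633 genes called), BPI (0.146%), CD40 (0%) and UT (0.115% of 12190), with 2, 2, 0 and 3 members at an unadjusted p under 0.05. These were Csf2rb and Csf3r, both above 0 on the log2 scale, and in UT also Csf1, below 0. DESeq2 called 1 in BP and 1 in BPI. The 3 ligands Il34, Csf2 and Csf3 did not pass the filter on low counts in that class. In microglia-like cells 0 of 6 members were called in BP, BPI and CD40 and 0 of 5 in UT (0% of 12399 and of 9793 genes called), none by DESeq2 and none at an unadjusted p under 0.05. In tumour-like cells, and in all cells summed, 0 of 8 members were called in any of the 4 comparisons, where 0% of 20176 and 21724 genes were called (20006 and 21206 in the fit for UT). DESeq2 called no member there, and 1, Csf2rb in all cells in BP, had an unadjusted p under 0.05. Over all genes, those at an unadjusted p under 0.05 in BP, BPI, CD40 and UT numbered 931, 1351, 157 and 1480 in monocyte/macrophage-like, 645, 545, 310 and 1294 in T-like and 573, 400, 40 and 790 in microglia-like cells. The same counts were 388, 198, 23 and 2419 in tumour-like cells and 841, 582, 70 and 2304 in all cells. DESeq2 called 114, 229, 3 and 233 genes in monocyte/macrophage-like, 16, 19, 0 and 86 in T-like and 43, 15, 0 and 64 in microglia-like cells. It called 60, 5, 0 and 751 in tumour-like cells and 437, 222, 2 and 844 in all cells.

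Member medians were set beside those of all genes as a description. In monocyte/macrophage-like cells the median log2 difference of the 5 members tested was 0.30 in BP, 0.78 in BPI, 0.20 in CD40 and 0.89 in UT, beside 0.0385, -0.0144, -0.0042 and 0.0076 over all genes. In microglia-like cells the member medians were 0.0875, 0.0851 and 0.28 in BP, BPI and CD40 (6 members) and 0.0314 in UT (5 members), beside -0.0239, -0.0529, -0.0006 and -0.0586. In tumour-like cells (8 members) they were 0.94, 0.25, 0.81 and 0.87 in BP, BPI, CD40 and UT, beside 0.0013, -0.045, 0.0039 and -0.0628. These 8 include Csf2, at 0 UMIs in both IgG libraries, and receptor chains whose tumour-like level was in part free RNA, by estimate up to 65.5% for Csf1r, 77.7% for Csf2ra, 49.3% for Csf2rb and 74.7% for Csf3r in single libraries. In T-like cells (3 members, with 1 IgG UMI each for Csf1 and Csf2) they were 1.93, 1.31, 0.79 and 2.66, beside 0.0182, -0.0236, -0.0216 and 0.0492. The third member, Csf2rb, went the other way, at -1.97, -7.97, -7.97 and -3.43, resting on 4 UMIs in IgG replicate 2. Over all cells (8 members) they were 0.65, 0.52, 1.13 and 0.57, beside -0.0107, -0.0637, 0.0212 and -0.0641.

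The wider pathway was read from lists of other ligands and receptors of the family, signalling proteins, feedback inhibitors, myeloid transcription factors and response genes of Csf2. In monocyte/macrophage-like cells, 0 of 3 other ligands and receptors, 0 of 17 signalling proteins, 0 of 4 feedback inhibitors, 0 of 10 transcription factors and 0 of 4 response genes were called in any comparison, beside 0% of all genes in BP, 0.146% in BPI, 0% in CD40 and 0.115% in UT. Their median log2 differences in BP were 0.64, 0.58, 2.92, 0.91 and 4.07, in BPI 0.86, 0.62, 3.03, 1.18 and 1.38, in CD40 0.06, 0.06, -0.35, 0.24 and 3.84, and in UT 1.67, 0.57, 2.32, 0.68 and 3.67. The medians over all genes were 0.0385, -0.0144, -0.0042 and 0.0076 in these comparisons. The lists are small, and IgG held only 75 and 58 of these cells, whose largest cluster was another than in UT or BP replicate 1. The lists were chosen with earlier results of these data known, and their medians were not tested. A gene could pass the filter on low counts through a single library, also where IgG had few or no UMIs. Across all classes 2 list genes were called, both transcription factors in T-like cells of UT against IgG. There 4 of the 10 transcription factors were tested, with 0 called among 2 other ligands and receptors, 15 signalling proteins, 4 feedback inhibitors and 2 response genes tested, beside 1.96% of all genes. Irf8, a factor of dendritic cells and monocytes, was at 226 CPM in UT (445 UMIs), 55.8 and 4.57 in IgG (7 and 1 UMIs), 130.5 and 73.1 in BP, 166 in BPI and 36.1 in CD40. UT exceeded IgG by a log2 difference of 3.15 ± 0.63 (adjusted p = 0.00175 by edgeR, 5.71e-06 to 0.28 over the alternatives), and the call was lost without IgG replicate 2 (0.28). Cebpb, a factor of macrophages and granulocytes, was at 3.04 CPM in UT (6 UMIs), 15.95 and 50.3 in IgG (2 and 11 UMIs), 54.1 and 50.1 in BP, 43.5 in BPI and 48.6 in CD40. Its log2 difference was -3.62 ± 0.83 (adjusted p = 0.0077 by edgeR, 0.000866 to 0.589 over the alternatives), and the call was lost with free RNA subtracted (0.0872) and without IgG replicate 2 (0.589). UT was also the lowest library for Cebpb in monocyte/macrophage-like cells (64.9 CPM against 281 to 910) and in tumour-like cells (9.66 against 96.1 to 206). For Irf8, UT was above both IgG libraries in other classes too. It had 87.1 CPM against 10.9 and 22.8 in tumour-like, 453.5 against 226.8 and 288.8 in monocyte/macrophage-like and 761 against 358 and 410 in microglia-like cells. The clusters and the myeloid marker sums given for Csf1 apply to these 2 genes too, and their part was not tested.

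Genes whose mean level followed that of a member most closely were listed over 15 cell classes by Pearson correlation, a description over classes that share libraries. For Csf1r these were Cx3cr1 (r = 0.938), a chemokine receptor of microglia, Diaph2 (0.925) and Tlr13 (0.915). For Csf2rb they were Alox5ap (0.960), Pirb (0.935) and Csf2rb2 (0.920), and for Csf3r they were Gm34589 (0.938), Clec4a2 (0.923) and Ppp1r3d (0.917). Csf2ra was followed most closely by Arl11 (0.931), Gm46224 (0.923) and Ogfrl1 (0.911). Among ligands, Il34 was followed by Notch3 (0.909), a receptor of mural cells, Col5a1 (0.897) and Carmn (0.867), Csf2 by Gm27162 (0.992) and Cpa3 (0.963), a mast cell protease, and Csf1 by Ipmk (0.866), Kcnj2 (0.855) and Ubap1 (0.826). Csf2 met the 20 CPM needed for this listing only in mast or basophil-like cells. Its 65.8 CPM there came from 9 UMIs in 2 of 42 cells of BP replicate 1, so its correlations rest on those cells. Cx3cr1, Notch3 and Cpa3 were in the marker lists that named the microglia-like, mural-like and mast or basophil-like classes. Their high levels there were so in part built in.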

How the data were processed

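Single-cell RNA from 7 whole-tumour libraries was deposited by the authors as raw UMI counts for every barcode, with no normalization or cell filter. Per the file headers the matrices came from Cell Ranger 4, per the submitters' processing notes from Cell Ranger 7.0.1 with mm10, and which is right was not settled. Total counts were 68997476 to 186793886 per library. Barcodes passed as cells (51795) with 1000 UMIs, 500 genes and no more than 15% of UMIs from mitochondria, and 3207 were removed as doublets by a score at 0.8% per 1000 cells. Counts were clustered with scanpy 1.11.5 (2000 variable genes, 30 components, 15 neighbours, Leiden resolution 1) without the 8 genes. A cluster was named from 22 marker lists when 3 or more markers were raised. It stayed unnamed if its top 10 genes held more markers of another list than of its own. It also stayed unnamed if it was shallow (few UMIs per cell for its library) and its top 10 genes held none of its own markers. This rule, and the 75% share at which clusters were split, were set after seeing the data. UMIs summed per library and class were tested with edgeR 4.0.16 (TMM, filterByExpr) in 6 libraries, or 7 for UT, where UT, BPI and CD40 are 1 library each and the spread comes from IgG and BP, with DESeq2 1.42.0 as an alternative, and the tests were checked on simulated data. NK-like cells were not tested because IgG replicate 2 had 17. The effect of other settings is given in the closing section. Levels were compared only within a gene. Intervals and limits (3 counts at a count of 0) cover counting error only. Genes named with values were the 8 members, Csf2rb2, any called gene of the lists and up to 3 genes closest to each member over cell classes. A few items that met these rules are not reported here. The 8 genes and the lists were chosen with earlier results of these data known.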

Additional observations from a re-analysis of the deposited data

How the results depend on the processing

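Few libraries limit every test here. Of the mean levels and shares of UMIs, 124 and 36 recomputed values stayed within 1 SD of the reported ones. The 124 include means with 1 library left out. Leaving out 1 library cannot move a mean by 1 SD, so for these the outcome was fixed in advance. Of the log2 differences, 250 kept their direction and side of the threshold, 28 became called, 7 lost their call and 10 changed sign. The number of members called in T-like cells for UT fell from 1 to 0 with free RNA subtracted and with doublets kept, and was 0 to 1 when 1 library was left out. In monocyte/macrophage-like cells it rose from 0 to 1 for BP with DESeq2, no filter, a term for library set or crossed replicate numbers (a choice made after seeing the data), and was 0 to 2 with 1 library left out. For BPI there it was 1 with DESeq2 or no filter, 2 with the set term and 0 to 1 with 1 library left out, and for UT 1 with the set term and 0 to 3 with 1 left out. It was 0 to 1 for BP in microglia-like cells with 1 left out and 2 for BPI in all cells with the set term. Genes called moved as well: in monocyte/macrophage-like cells from 0 to 114, 397, 617 and 521 for BP with DESeq2, no filter, set term and crossed numbers, from 17 to 229, 633 and 572 for BPI with the first 3 of these and from 14 to 889 for UT with the set term. They moved from 0 to 343 for BPI in all cells with the set term and from 183 to 88 and 46 for UT in T-like cells with free RNA subtracted and doublets kept. Genes called were also most without BP replicate 1 for UT in monocyte/macrophage-like cells, and without BP replicate 2 for BP in microglia-like cells. The member calls of those fits stand beside these rises over all genes and are not read as particular to the members. The cause was not tested.

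With UT pooled with IgG, the BP differences turned to -0.23 for Csf1 and -0.087 for Csf2 in T-like cells and to -0.057 for Csf2ra in monocyte/macrophage-like cells. Leaving out 1 library gave ranges over 0: -1.004 to 8.23 for Csf2 in T-like cells (8.23 against an IgG library at 0 UMIs), -0.19 to 0.77 for Il34 in tumour-like cells, -0.082 to 0.57 for Csf1r and -0.26 to 0.70 for Csf2ra in monocyte/macrophage-like cells, and -0.12 to 0.40 for Csf1r and -0.23 to 1.14 for Csf2rb in microglia-like cells, all for BP. With cells not thinned, shares with a UMI were 33.9% in place of 9.86% (Csf1, microglia-like), 18.9% for 1.51% (Il34, tumour-like), 2.46% for 0.731% (Csf2, T-like), 0.382% for 0.0284% (Csf3, tumour-like), 96.5% for 75.6% (Csf1r, microglia-like), 65.7% for 15.7% (Csf2ra) and 65.8% for 20.7% (Csf2rb, both monocyte/macrophage-like) and 71.8% for 21.0% (Csf3r, microglia-like). Genes called varied with the setting: for BP 0 to 60 in tumour-like, 0 to 111 in T-like, 0 to 617 in monocyte/macrophage-like, 0 to 829 in microglia-like and 0 to 437 in all cells, and for UT 46 to 424 in T-like (183 as reported) and 2 to 1346 in monocyte/macrophage-like cells (14). For BPI they ran to 5, 133, 633, 150 and 343 in the same order of classes. With the replicate block on IgG and BP libraries, 0 members were called in tumour-like, monocyte/macrophage-like, microglia-like and all cells. Same-numbered libraries deviated from their group means with correlations of -0.698 in tumour-like and -0.232 in monocyte/macrophage-like cells, so the numbers do not pair them.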

Other observations

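Unnamed cells supplied 4.37% of Csf1 and 4.99% of Il34 UMIs. An unnamed cluster led by B3galt2, Gfap and Itga8 (533 cells) had 95.9 CPM of Csf1, between the tumour-like mean of 27.4 and the microglia-like mean of 185. Another, led by Cxcl13, Cst7 and C1qc (46 cells), had 211 CPM of Csf2ra and 73.7 of Csf3r, and one led by Spp1, Ltc4s and Cst7 (36 cells), had 579 CPM of Csf1r. A fibroblast-like cluster of 23 cells, led by Dcn and Col1a2, had 217 CPM of Il34, with 42 UMIs from 17 cells of CD40 and 1 UMI from BPI. Oligodendrocyte-like cells, 114 in all, had 130 CPM of Csf1 over all libraries. These cells entered the comparisons only through the sums over all cells.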
